A study of Mus musculus with 8 samples.

Results

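The genes described here are 10 genes of cellular iron handling, chosen by symbol from a count table of 26667 genes. Tfrc, Trf and Slc11a2 bring iron into cells, Fth1 and Ftl1 store it, Slc40a1 and Cp pass it out, Hmox1 frees it from haem, and Ireb2 and Aco1 encode the proteins that sense it. All 10 were found in the table and all 10 passed the filter on low counts, beside 14867 genes tested in all. They were measured by RNA-seq in 8 undifferentiated pleomorphic sarcomas (UPS, a soft tissue sarcoma) of the mouse. KP mice (Trp53 fl/fl) gave 4 tumours, named KP 5 to KP 8. KPH2 mice (Trp53 fl/fl; Epas1 fl/fl) gave the other 4, named KPH2 1 to KPH2 4, which in addition lost Epas1, the gene of HIF-2α. In both groups adenovirus expressing Cre recombinase was injected into hind limb muscle of mice of mixed 129/C57BL/6 strain, aged at least 8 weeks, so loss of Trp53 was common to all tumours. Cre acted in cells reached by the virus and each library came from a whole fixed tumour section, so cells with intact Epas1 could remain in it.

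Iron reaches most cells bound to transferrin, which the transferrin receptor takes up, and the divalent metal transporter then moves it from the endosome to the cytosol. Spare iron is kept inside ferritin, a shell of heavy and light chains, or leaves through ferroportin with the help of a copper oxidase. When iron is scarce, the iron regulatory proteins bind hairpins in mRNA called iron responsive elements (IREs). A bound IRE in the 5′ untranslated region blocks translation, while bound IREs in the 3′ untranslated region of Tfrc protect the mRNA from decay. HIF-2α is known from intestine and other tissues as an activator of iron uptake and export genes, and sarcomas are often poor in oxygen, which stabilises it.

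Because that control acts through sequence in the messages themselves, the untranslated regions of the 10 genes were searched for the IRE consensus. The pattern was a C, any 5 bases, the loop CAGTGN and 5 bases that pair with the 5 before the loop, with G to T pairs allowed. It was sought on the sense strand of GENCODE M21 transcripts of GRCm38. It was present in the 5′ untranslated region of 31 of 21901 genes (0.142%) and in the 3′ untranslated region of 129 (0.589%). Of the 10 members, 4 held it: Fth1, Ftl1 and Slc40a1 at the 5′ end and Tfrc 4 times at the 3′ end. The sites are shown because they are the part of these mRNAs that responds to iron. Each is written 5′ to 3′ over 30 bases with the 6 bases of the loop in capitals.
Fth1, 5′ untranslated region, chr19:9982732-9982761, plus strand: ttcctgcttcaaCAGTGCttgaacggaacc
Ftl1, 5′ untranslated region, chr7:45459778-45459807, minus strand: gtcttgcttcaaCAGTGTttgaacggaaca
Slc40a1, 5′ untranslated region, chr1:45925464-45925493, minus strand: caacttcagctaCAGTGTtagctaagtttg
Tfrc, 3′ untranslated region, chr16:32631219-32631248, plus strand: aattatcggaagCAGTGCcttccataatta
Tfrc, 3′ untranslated region, chr16:32631598-32631627, plus strand: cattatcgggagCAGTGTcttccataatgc
Tfrc, 3′ untranslated region, chr16:32631663-32631692, plus strand: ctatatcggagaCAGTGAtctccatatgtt
Tfrc, 3′ untranslated region, chr16:32631710-32631739, plus strand: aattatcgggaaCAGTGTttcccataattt
The 3 single sites belong to mRNAs whose translation iron regulatory proteins can block, and RNA-seq does not measure that step. The 4 Tfrc sites act on mRNA stability and so bear on the Tfrc counts below. A site was in 4 of 5 annotated coding transcripts of Fth1, 1 of 2 of Ftl1, 1 of 4 of Slc40a1 and 1 of 3 of Tfrc. The gene counts do not separate transcripts with and without a site. Slc11a2, Epas1, Trf, Cp, Hmox1, Ireb2 and Aco1 held no match, which says only that these letters with this pairing were not in the windows searched.

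The libraries held 6463221 to 13155510 counts, and the member with the lowest count, Slc40a1, had at least 156 in every tumour. Levels are given as CPM, counts scaled to a common library size after TMM normalization, which evens out differences in composition. KPH2 1 was missing from the authors' table of normalized values for 7 tumours and was taken as the knockout tumour that the study left out as a technical outlier. Means, fold changes and tests are therefore over 4 KP and 3 KPH2 tumours unless all 8 are named, and KPH2 1 is shown apart. Differences are log2 fold changes of KPH2 minus KP with standard errors (SE). They come from the quasi-likelihood fit of edgeR, and p-values were adjusted by the method of Benjamini and Hochberg across every gene tested. Epas1 had a lower level in every KPH2 tumour (32.0 to 54.2 CPM over 4) than in every KP tumour (59.6 to 85.5 CPM), with a log2 fold change of −0.81 (SE 0.19, edgeR adjusted p = 0.0742). Its adjusted p from DESeq2 was 0.0118, and 4 of 21 alternatives called it. The counts are over the whole gene, and the deleted exons are not given in the sources used here.

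No member passed the test for a difference between KP and KPH2 tumours. At an adjusted p of 0.05, 0 of the 10 members were called by edgeR, beside 292 of the 14867 genes tested (1.96%), of which 185 were higher in KPH2 tumours (1.24%) and 107 lower (0.72%). At an unadjusted p of 0.05 edgeR again called 0 members, beside 2640 genes (17.8%). DESeq2 called 0 members at either threshold, beside 1166 of 16733 genes at the adjusted (6.97%) and 2905 at the unadjusted one (17.4%). With limma on the authors' rlog values, 0 members passed the adjusted and 1 the unadjusted threshold, beside 2.17% and 17.5% of 14867 genes. With KPH2 1 included, edgeR called 0 members at the adjusted and 1 at the unadjusted threshold, beside 1 of 14805 genes (0.00675%) and 2172 genes (14.7%). The KP and KPH2 ranges overlapped for all 10 members, whereas they were apart for 2504 of the 14867 genes (16.8%). Over all 8 tumours they overlapped for all 10 members too, and were apart for 1207 genes (8.15%). The sign was negative for 8 members and positive for 2, with a median log2 fold change of −0.16, beside −0.02 for all tested genes. The interval of each difference shows what sizes the data leave possible. It was narrowest for Aco1, from −0.15 to 0.45, and widest for Hmox1, from −1.44 to 1.25.

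**Figure D1:**
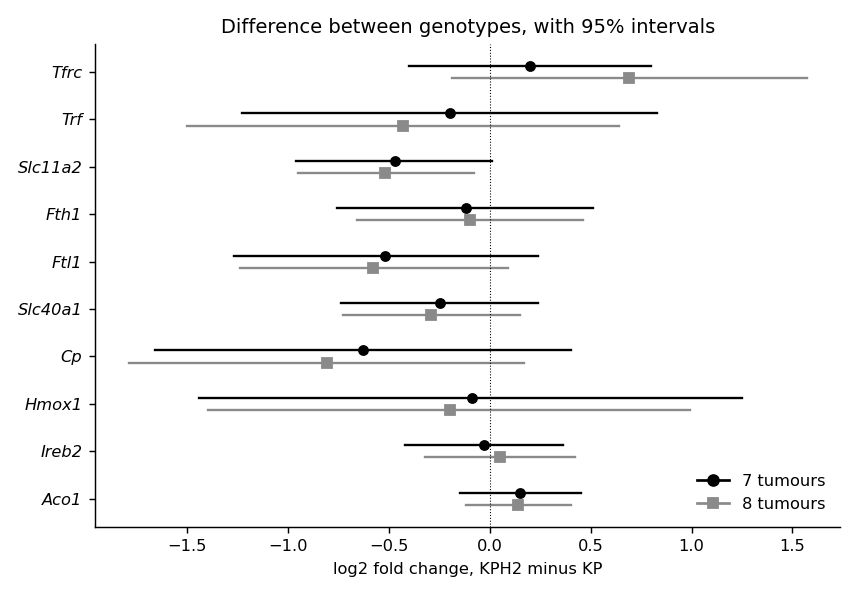
Log2 fold change of each iron gene (x axis, KPH2 minus KP tumours) with its 95% interval from edgeR, over 7 tumours (black circles) and over all 8 (grey squares). Every interval over 7 tumours includes 0, and over 8 tumours the interval of Slc11a2, from −0.95 to −0.08, does not.

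Of the uptake genes, Tfrc (chromosome 16, 32608896 to 32632794 of GRCm38.p6) encodes transferrin receptor 1. Its level was 60.8, 125, 101 and 106 CPM in KP 5, 6, 7 and 8, and 144, 88.4 and 108 CPM in KPH2 2, 3 and 4. KP 5 was lowest and the other KP tumours lay among the KPH2 tumours. The mean over KP tumours was 98.0 ± 26.9 CPM (SD, n = 4), and over KPH2 2 to 4 it was 114 ± 28.4 CPM (SD, n = 3), which gave a log2 fold change of 0.20 (SE 0.26, edgeR adjusted p = 0.753). KPH2 1 stood far above the rest, at 290 CPM or 2.01 times the next highest tumour. With it, the log2 fold change was 0.69 (SE 0.39, edgeR adjusted p = 0.447), so most of that value came from 1 library. Without KPH2 2 the difference over 7 tumours was gone, at −0.0017.

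Trf (chromosome 9, 103208876 to 103230286) encodes transferrin, the carrier of iron in plasma, made mainly by liver and also by some cells of other tissues. Its level was 73.6, 276, 195 and 184 CPM in KP 5 to 8, and 89.7, 180 and 211 CPM in KPH2 2, 3 and 4. Each group held 1 tumour below 100 CPM and its other tumours at 180 CPM or more, and KPH2 1, at 62.1 CPM, was the lowest of all. The log2 fold change was −0.20 (SE 0.45, edgeR adjusted p = 0.869). Leaving out 1 tumour at a time moved it from −0.45 to 0.10, so the direction was not settled.

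Slc11a2 (chromosome 15, 100387898 to 100424209) encodes divalent metal transporter 1, which carries ferrous iron across the endosomal and intestinal membranes and is a known HIF-2α target in intestine. It had the smallest p among the members. The KP tumours were close together, at 81.4, 85.9, 99.9 and 91.8 CPM in KP 5 to 8. KPH2 1, 3 and 4 were lower, at 56.2, 49.6 and 56.6 CPM, while KPH2 2 lay within the KP range at 89.8 CPM. The mean over KP tumours was 89.8 ± 7.99 CPM (SD, n = 4), and over KPH2 2 to 4 it was 65.3 ± 21.5 CPM (SD, n = 3). The log2 fold change was −0.47 (SE 0.21, edgeR adjusted p = 0.295), and with KPH2 1 it was −0.52 (SE 0.19, edgeR adjusted p = 0.276). A 2-sided exact permutation test of mean log2 CPM gave p = 0.086 both over 7 and over 8 tumours, where the smallest possible p is 0.029. Without KPH2 2 the log2 fold change was −0.76 (edgeR adjusted p = 0.132). The Slc11a2 messages with and without an IRE, known from alternative 3′ ends, share one gene count and were not separated.

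The ferritin chains were the most abundant members per base. Fth1 (chromosome 19, 9980600 to 9985111), the heavy chain that oxidises iron as it enters the shell, was at 638, 789, 934 and 1030 CPM in KP 5 to 8 and at 1110, 511 and 737 CPM in KPH2 2 to 4. The highest and the lowest tumour were both KPH2 tumours, and KPH2 1 lay between, at 807 CPM. The log2 fold change was −0.12 (SE 0.28, edgeR adjusted p = 0.867). Ftl1 (chromosome 7, 45457944 to 45459886), the light chain that helps to lay down the mineral core, was at 479, 264, 431 and 692 CPM in KP 5 to 8 and at 455, 279 and 252 CPM in KPH2 2 to 4. KPH2 1, 3 and 4 lay together at 252 to 279 CPM, near KP 6, and KPH2 2 lay between KP 7 and KP 5. The log2 fold change was −0.52 (SE 0.33, edgeR adjusted p = 0.465). Both ferritin genes have processed copies elsewhere in the mouse genome, and counting of unique alignments leaves such reads out, so their levels are uncertain.

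Of the export genes, Slc40a1 (chromosome 1, 45908070 to 45926532) encodes ferroportin, the iron exporter of the cell membrane. It was the member with the lowest level, at 22.9, 28.9, 29.6 and 21.7 CPM in KP 5 to 8 and at 20.7, 27.4 and 17.5 CPM in KPH2 2 to 4. KPH2 2 and 4, and KPH2 1 at 19 CPM, were below every KP tumour by a small margin, and KPH2 3 was among the higher KP tumours. The log2 fold change was −0.25 (SE 0.21, edgeR adjusted p = 0.6), and −0.29 (SE 0.19, edgeR adjusted p = 0.521) with KPH2 1. Ferroportin is abundant in macrophages that recycle iron, so the macrophage values further on stand beside it.

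Cp (chromosome 3, 19956933 to 20009750) encodes ceruloplasmin, the copper oxidase that loads exported iron on transferrin. Its level was 54.8, 220, 234 and 221 CPM in KP 5 to 8, 61.4 CPM in KPH2 1, and 110, 108 and 138 CPM in KPH2 2, 3 and 4. KP 6, 7 and 8 were thus within 220 to 234 CPM and above every KPH2 tumour, and KP 5 was below all of them. The KP mean was 182 ± 85.2 CPM (SD, n = 4) and the mean over KPH2 2 to 4 was 119 ± 16.6 CPM (SD, n = 3), for a log2 fold change of −0.63 (SE 0.45, edgeR adjusted p = 0.514). One library decided this call. Without KP 5 the log2 fold change was −0.93 (SE 0.15, edgeR adjusted p = 0.0323), which made Cp 1 of the 349 genes called among 14554 (2.4%). Over 21 alternatives its adjusted p ran from that value to 0.995. KP 5 carries the label of the other KP tumours, so the value with KP 5 is the one reported.

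**Figure D2:**
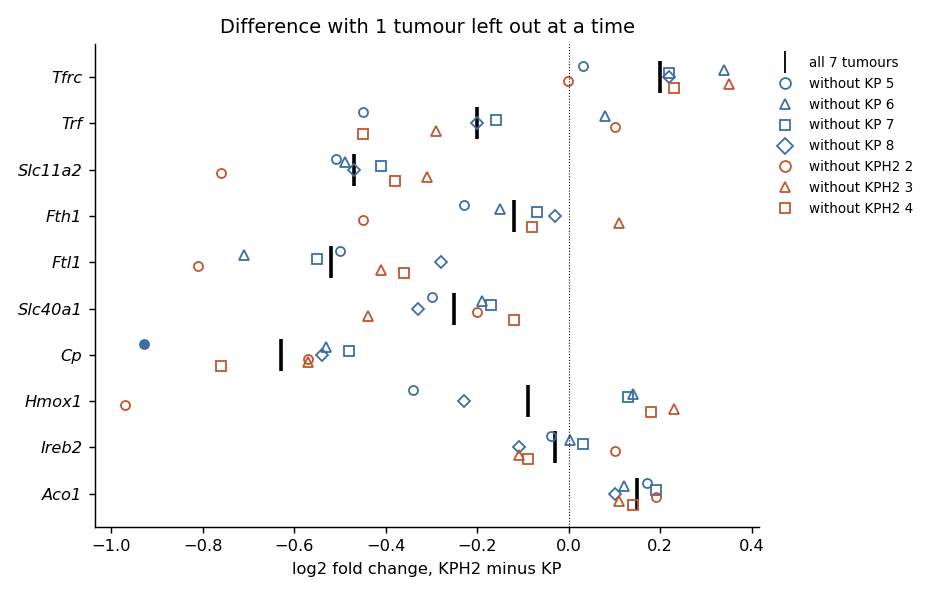
Log2 fold change of each iron gene (x axis, KPH2 minus KP tumours) over 7 tumours (black bar) and with 1 tumour left out at a time (open symbols, blue for a KP and orange for a KPH2 tumour). The filled symbol marks the 1 value past an adjusted p of 0.05, Cp without KP 5 at −0.93, while Hmox1 ran from −0.97 to 0.23.

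Hmox1 (chromosome 8, 75093618 to 75100593) encodes haem oxygenase 1, which breaks down haem to biliverdin, carbon monoxide and iron and is induced by haem and by NRF2. It varied most among the members within the KPH2 tumours. The level was 29.9, 104, 102 and 51.9 CPM in KP 5 to 8, 47.0 CPM in KPH2 1, and 131, 33.9 and 39.9 CPM in KPH2 2, 3 and 4. KPH2 2 was the highest of the 8 tumours and the other KPH2 tumours were near the lower KP tumours, a spread of 4.38-fold between the highest and the lowest tumour. The log2 fold change was −0.09 (SE 0.58, edgeR adjusted p = 0.956). Without KPH2 2 it was −0.97, and without KPH2 3 it was 0.23.

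The sensors had the smallest ratios of the highest to the lowest tumour. Ireb2 (chromosome 9, 54862658 to 54912534) encodes iron regulatory protein 2, which is degraded when iron is plentiful. Its level was 160, 174, 181 and 138 CPM in KP 5 to 8 and 132, 179 and 173 CPM in KPH2 2 to 4, with KPH2 1 highest at 193 CPM. The KP and KPH2 values were interleaved, and the log2 fold change was −0.03 (SE 0.17, edgeR adjusted p = 0.949). Aco1 (chromosome 4, 40143265 to 40199009) encodes iron regulatory protein 1, a cytosolic aconitase that binds IREs once it loses its iron-sulphur cluster, and that is known to repress translation of HIF-2α mRNA. Its level was 81.8, 74.1, 84.9 and 72.6 CPM in KP 5 to 8 and 83.4, 91.1 and 87.9 CPM in KPH2 2 to 4, with KPH2 1 at 82.9 CPM. Only KP 7 lay above the lowest KPH2 tumours, and the log2 fold change was 0.15 (SE 0.13, edgeR adjusted p = 0.616). The highest tumour was 1.26 times the lowest for Aco1 and 1.46 times for Ireb2, beside 4.77 times for Tfrc.

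**Figure D3:**
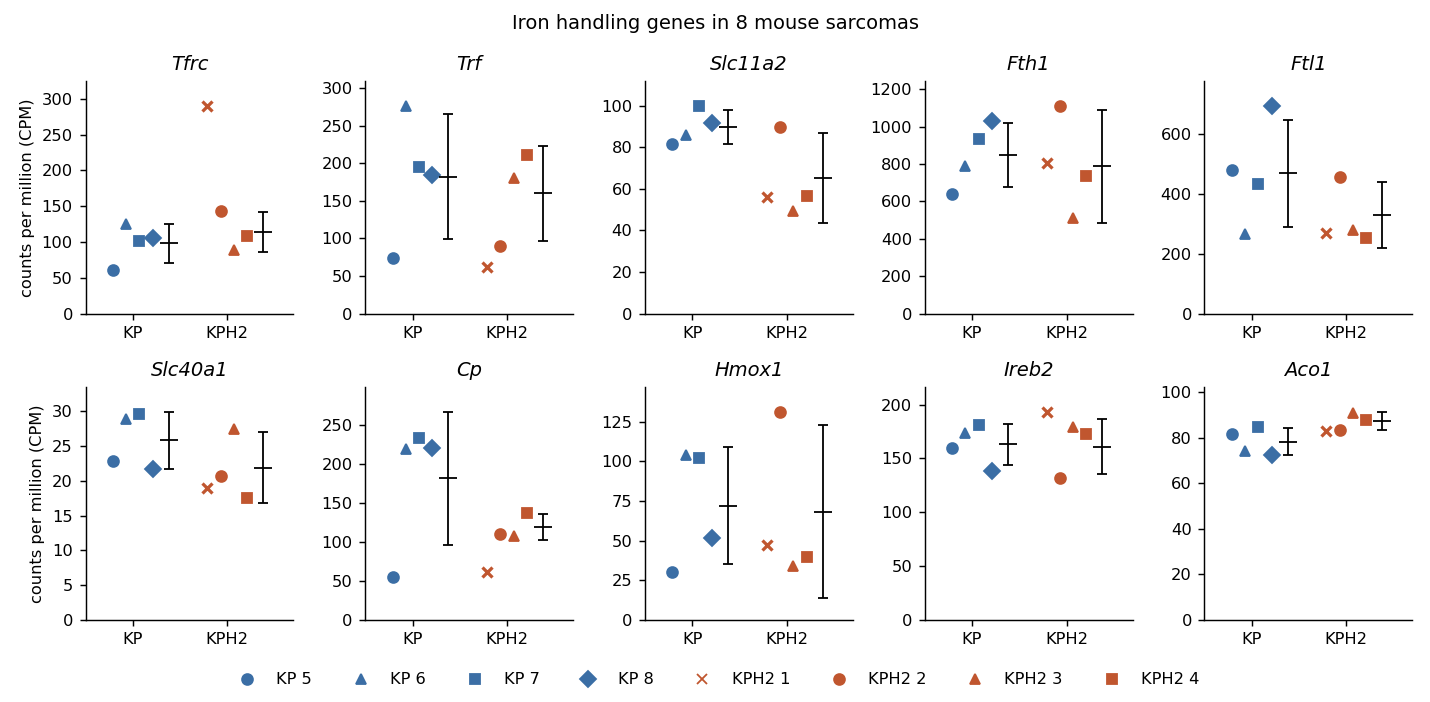
Level of each iron gene in CPM (y axis, from 0) in each KP (blue) and KPH2 (orange) tumour, with the mean and SD of 4 KP and 3 KPH2 tumours in black and KPH2 1 as a cross outside the mean. KPH2 1 stands at 290 CPM for Tfrc, KP 5 at 54.8 CPM for Cp and KPH2 2 at 131 CPM for Hmox1.

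Levels were compared between genes after division by the length of the longest coding transcript, in CPM per kilobase. In KP tumours (mean ± SD, n = 4), Fth1 at 568 ± 115 and Ftl1 at 482 ± 182 stood above the rest and did not differ beyond their spread. Trf (70.8 ± 32.3), Hmox1 (45.8 ± 23.5), Cp (39.9 ± 18.7) and Ireb2 (28.3 ± 3.30) followed, each within the spread of its neighbour in that order. Aco1 (20.4 ± 1.55), Slc11a2 (20.3 ± 1.81) and Tfrc (20.0 ± 5.51) were alike within their spread, and Slc40a1 was lowest at 7.65 ± 1.21. In KPH2 tumours (mean ± SD, n = 3) the ferritins again led, with Fth1 at 527 ± 203 and Ftl1 at 339 ± 114 CPM per kilobase, and Slc40a1 was again lowest at 6.49 ± 1.49. Tfrc stood at 23.2 ± 5.81 CPM per kilobase in these KPH2 tumours and at 59.4 in KPH2 1.

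Ratios of these length-scaled levels set uptake against storage and export within a tumour. Tfrc over Fth1 was 0.0291 to 0.0485 in KP and 0.0397 to 0.0528 in KPH2 2 to 4, and 0.110 in KPH2 1. The groups overlapped and KPH2 1 was apart from both. Slc40a1 over Tfrc was 0.298 to 0.545 in KP, 0.208 to 0.450 in KPH2 2 to 4 and 0.0948 in KPH2 1. Heavy over light chain ferritin was 0.863 to 1.94 in KP, 1.19 to 1.89 in KPH2 2 to 4 and 1.95 in KPH2 1. Ireb2 over Aco1 was 1.27 to 1.56 in KP tumours, 1.05 to 1.31 in KPH2 2 to 4 and 1.55 in KPH2 1. In all 4 ratios the ranges of KP and of KPH2 2 to 4 overlapped.

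Other genes of iron biology were taken from a list of 51 genes that holds none of the 10 members, of which 45 were tested. edgeR called 1 of the 45, beside 1.96% of all genes, and the 45 had a median log2 fold change of −0.09. Steap4, a metalloreductase that reduces iron and copper before uptake, was at 36.5, 59.1, 91.0 and 43.7 CPM in KP 5 to 8 and at 12.2, 13.5 and 21.1 CPM in KPH2 2 to 4. Every KPH2 tumour was below every KP tumour, also KPH2 1 at 27.0 CPM, where 8.15% of all tested genes had the groups apart over 8 tumours. Steap4 fell in KPH2 tumours, with a log2 fold change of −1.90 (SE 0.37, edgeR adjusted p = 0.0457). It was called in 1 of the 7 fits that left out a tumour, the fit without KP 5, and with KPH2 1 included the log2 fold change was −1.64 (edgeR adjusted p = 0.132). Over 21 alternatives its adjusted p ran from 2.88e-05 with DESeq2 to 0.865, and 10 of them called it. Its log2 fold change ran from −2.18 to −0.74, and with the muscle or the macrophage score as a covariate it was −0.74 (SE 0.45) or −0.99 (SE 0.37), with the call lost in both. Both scores, given below, ran closely with genotype, so these fits cannot tell score from genotype.

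The genes next to the threshold did not pass it. Tfr2, transferrin receptor 2, which senses loaded transferrin in liver and erythroid cells, was at 0.374 to 0.838 CPM in KP and at 1.46 to 4.22 CPM in KPH2 2 to 4. That is 3 to 6 counts in each KP tumour and 13 to 42 in KPH2 2 to 4, while KPH2 1 had 2 counts, at 0.157 CPM, below every KP tumour. Its log2 fold change was 2.45 (SE 0.50, edgeR adjusted p = 0.050012). Hfe2, the gene of hemojuvelin, a BMP co-receptor expressed in skeletal muscle and liver, was at 1.90 to 4.05 CPM in KP and at 17.5, 27.3 and 3.49 CPM in KPH2 2, 3 and 4, with a log2 fold change of 2.53 (SE 0.61, edgeR adjusted p = 0.0787). KPH2 2 and 3 were high, KPH2 4 lay within the KP range and KPH2 1, at 1.65 CPM, was below every KP tumour. Of the 7 fits that left out a tumour, 1 called Hfe2, that without KPH2 4 at a log2 fold change of 3.0 (edgeR adjusted p = 0.0187). The lowest of the 7 values was 1.91 without KPH2 3 (edgeR adjusted p = 0.183), and over all 8 tumours the adjusted p from edgeR was 0.275. The 30 skeletal muscle genes summed to 1790 to 3360 CPM in KP tumours, to 12700, 19600 and 4310 CPM in KPH2 2, 3 and 4, and to 1470 CPM in KPH2 1. All 30 were higher in KPH2 2 to 4 than in KP tumours by their fitted values. edgeR called 3 of them (27 at an unadjusted p of 0.05), beside 1.96% and 17.8% of all genes, and DESeq2 called 23, beside 6.97%. Fitted together with the muscle score, the difference was a log2 fold change of −0.09 for Hfe2 (SE 0.84) and 1.42 for Tfr2 (SE 0.86). That score, the mean log2 CPM of the muscle genes, was 3.04 to 4.31 in KP and 4.65 to 6.97 in KPH2 2 to 4. Score and genotype thus cannot be told apart in this fit, and the part of muscle RNA in these values was not tested. Bmp6, the endothelial signal that raises hepcidin, was at 3.07 to 14.2 CPM in KP and at 0.903 to 1.65 CPM in KPH2 2 to 4 (log2 fold change −2.37, SE 0.61, edgeR adjusted p = 0.0929), with KPH2 1 at 4.15 CPM within the KP range. Without KP 5, the highest tumour, the log2 fold change was −1.73 (edgeR adjusted p = 0.0932), and with KPH2 1 it was −1.73 too (edgeR adjusted p = 0.268).

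By role, 12 other uptake genes were tested with 6 higher and 6 lower in KPH2 tumours, and a median log2 fold change of 0.01. The 12 haem genes had 2 higher and 10 lower (median −0.16), the 9 mitochondrial genes 4 and 5 (median −0.02), and the 6 genes of systemic control 3 and 3 (median −0.22). The 1 export gene tested, Heph, had a log2 fold change of 0.53. All 3 other storage genes had positive values (median 0.08), and both regulators had negative ones (median −0.36). These are signs of values and, apart from Steap4, none of the genes passed the test in edgeR. At an unadjusted p of 0.05 there were 9 of 45 genes, 4 higher and 5 lower, beside 17.8% of all genes. DESeq2 called 5 of 44, beside 6.97% of all genes, namely Steap4, Bmp6 and Hp lower and Tfr2 and Hfe2 higher in KPH2 tumours. Cybrd1, the duodenal ferric reductase known as an intestinal HIF-2α target, is named after its values were seen, with 17.2, 2.52, 1.02 and 0.840 CPM in KP 5 to 8, 15.4 CPM in KPH2 1, and 4.02, 11.2 and 10.6 CPM in KPH2 2 to 4. KP 5 was the highest tumour, and the other KP tumours were below every KPH2 tumour. Its log2 fold change was 0.63 (SE 0.99, edgeR adjusted p = 0.797), and without KP 5 it was 2.58 (SE 0.57, edgeR adjusted p = 0.0673).

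**Figure D4:**
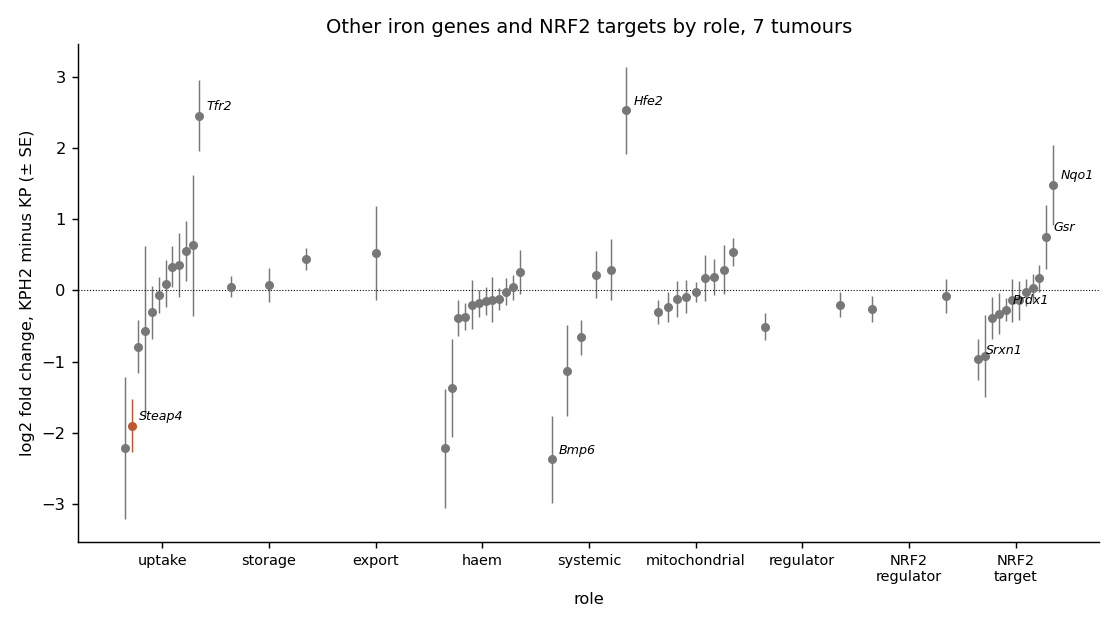
Log2 fold change (y axis, KPH2 minus KP, 7 tumours) with its SE for the other iron genes and the NRF2 genes, grouped by role on the x axis. Steap4, in orange, is the 1 gene past an adjusted p of 0.05, at −1.90, and Hfe2 lies highest at 2.53 without passing it.

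NRF2, encoded by Nfe2l2, drives Hmox1 and both ferritin chains together with antioxidant genes. edgeR called 0 of 14 genes of this group (12 targets, Nfe2l2 and Keap1) at the adjusted threshold and 2 at an unadjusted p of 0.05, beside 1.96% and 17.8% of all genes, with 4 higher and 10 lower and a median log2 fold change of −0.14. DESeq2 called 1, Srxn1, at an adjusted p of 0.0341, beside 6.97% of all genes, and limma on rlog values called 0. Srxn1, sulfiredoxin, was at 113 to 178 CPM in KP and 46.3 to 103 CPM in KPH2 2 to 4 (log2 fold change −0.97, SE 0.29, edgeR adjusted p = 0.131), and was at 86.0 CPM in KPH2 1. Nqo1, a quinone reductase, was at 5.10 to 9.22 CPM in KP and at 45.1, 7.43 and 12.7 CPM in KPH2 2, 3 and 4 (log2 fold change 1.48, SE 0.56, edgeR adjusted p = 0.219). Without KPH2 2 the log2 fold change was 0.39. The high tumour was KPH2 2, the one with the highest Hmox1 and Fth1. Gsr, glutathione reductase, was also highest in KPH2 2 at 110 CPM, beside 18.5 to 66.7 CPM in KP tumours (log2 fold change 0.75, SE 0.45, edgeR adjusted p = 0.437). With 1 tumour left out, its log2 fold change ran from 0.42 without KPH2 2 to 0.99 without KP 6. Prdx1, a peroxiredoxin, was not highest in KPH2 2, with 384 CPM there and 341 to 454 CPM in KP tumours (log2 fold change −0.27, SE 0.16, edgeR adjusted p = 0.424). Of the other targets, Txnrd1 and G6pdx were highest in KPH2 2, and Srxn1, Gclc, Gclm, Slc7a11, Me1, Abcc1 and Taldo1 were not.

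Markers of other cell types are given beside these values. In bulk tumours fewer cells of a type and less RNA per cell cannot be told apart. The 16 macrophage genes summed to 2600, 4650, 4330 and 4370 CPM in KP 5 to 8 and to 1970, 2640 and 2880 CPM in KPH2 2 to 4, with 14 of 15 tested genes lower in KPH2 tumours and 0 of them called by edgeR. At an unadjusted p of 0.05 there were 5 and DESeq2 called 1 of 16, beside 1.96%, 17.8% and 6.97% of all genes for the same 3 counts. KPH2 1 was at 2380 CPM, and none of the 16 genes was at 0 in every tumour. KP 5, the KP tumour with low Cp, Trf and Hmox1, was also the KP tumour with the lowest macrophage sum. Its endothelial (290 CPM), neutrophil (0.897 CPM) and red cell (13.5 CPM) sums were the lowest among KP tumours too. Its muscle (3360 CPM) and epithelial (7.40 CPM) sums were the highest among them. Once the macrophage score was added as a covariate, the difference turned to a log2 fold change of 1.09 for Cp (edgeR adjusted p = 0.381) and to 1.36 for Trf (edgeR adjusted p = 0.176). The mean log2 CPM of the 16 macrophage genes was 5.99 to 6.65 in KP and 5.80 to 6.03 in KPH2 2 to 4. Score and genotype can thus hardly be told apart in this fit, and the part of macrophage RNA in these values was not tested. The 8 endothelial genes summed to 290 to 559 CPM in KP, to 301 to 309 CPM in KPH2 2 to 4 and to 209 CPM in KPH2 1, with 7 of 8 lower in KPH2 tumours and 0 called by edgeR, 3 at an unadjusted p of 0.05 and 2 called by DESeq2, beside the same shares of all genes.

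Red cells, which carry haem iron and transferrin receptor when young, left little RNA. The 9 red cell genes summed to 13.5 to 22.6 CPM in KP and 13.4 to 18 CPM in KPH2 2 to 4, and to 19.5 CPM in KPH2 1, most of it Alas2. Hba-a1 was at 0 in every tumour, although its near-identical copies leave few unique alignments. In KPH2 1, the tumour with the highest Tfrc, the sum was within the range of the others, while Alas2 was highest of the 8 tumours, at 15.1 CPM beside 9.96 to 12.7 CPM. The part of red cell RNA in its Tfrc value was not tested. The 10 mesenchymal genes, which mark sarcoma cells and fibroblasts, summed to 18100 to 42300 CPM in KP, 22100 to 31000 CPM in KPH2 2 to 4 and 27700 CPM in KPH2 1, the highest of the marker lists in each tumour. Of these 10 genes 8 were lower in KPH2 tumours and 2 passed an unadjusted p of 0.05, beside 17.8% of all genes. At the adjusted threshold edgeR called 1, beside 1.96%, namely Pdgfra (log2 fold change −2.02, SE 0.27, edgeR adjusted p = 0.0183), named after its values were seen. Pdgfra was at 627 CPM in KPH2 1, beside 227 to 274 CPM in KPH2 2 to 4. With KPH2 1 included its log2 fold change was −1.54 (edgeR adjusted p = 0.16). Keratin genes Krt8 and Krt18 made most of an epithelial sum of 480 and 524 CPM in KPH2 2 and 4, beside 57.2 and 50.3 CPM in KPH2 1 and 3 and 3.94 to 7.40 CPM in KP tumours. edgeR called both, the 2 called of 3 epithelial genes tested, beside 1.96% of all genes. Over all 8 tumours neither was called (edgeR adjusted p = 0.152 for Krt8 and 0.0757 for Krt18). The 8 neutrophil genes, among them Ltf of lactoferrin, summed to 26.1 CPM or less in every tumour. The share of counts on the ribosomal RNA gene Rn45s was 1.08 to 2.79% in KP and 3.58 to 9.83% in KPH2 tumours, highest in KPH2 2. With Rn45s left out of the counts, each member's log2 fold change moved by 0.014 or less.

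Genes whose level ran closest to that of 4 members were sought among 10120 genes with a mean of at least 10 CPM, by Pearson's r of log2 CPM over 8 tumours. This is a description over 8 libraries, with no test. Naf1, Dusp11 and Ube2b were closest to Tfrc (r = 0.98, 0.98 and 0.96). Without KPH2 1, which was highest for Tfrc, r was 0.97, 0.94 and 0.92. For Slc40a1 these were Srpx2, Fam114a1 and Cyp4f16 (r = 0.96, 0.96 and 0.94), and for Hmox1 they were Errfi1, Ell and Hivep2 (r = 0.95 each). For Cp they were Bmp2k, Pld1 and Xbp1 (r = 0.98, 0.97 and 0.96).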

How the data were processed

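RNA from fixed, paraffin-embedded sections of 8 tumours was depleted of ribosomal RNA, and stranded libraries were sequenced, 1 per tumour. Per the labels and the methods, STAR 2.4 placed the reads on GRCm38, and HTSeq 0.6.1 gave each RefSeq gene its number of uniquely placed reads. The deposited counts were not normalized, and the strand setting of the counting is not given in the sources used here. The rlog tables of the authors, over 7 and over 8 tumours, hold log2 values shrunk at low counts and were used as alternatives.

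Counts were tested with edgeR 4.0.16 in R 4.3.3 (TMM, minimum count 10, minimum total count 15, robust quasi-likelihood test, no covariate), with Benjamini-Hochberg adjustment over 14867 genes and a threshold of 0.05. CPM used TMM sizes of all 8 tumours, and log2 CPM a prior count of 2. Exact permutation tests ran over 35 splits of 7 tumours or 70 of 8. The biological coefficient of variation was 0.313 over 7 and 0.347 over 8 tumours, and the closest pair of libraries had a chi-square of 28.3 for each degree of freedom, so each was counted as 1 sample. limma 3.58.1 and DESeq2 1.42.0 served as alternatives, beside other normalizations, filters, covariates and tumours left out. Positions are from RefSeq for GRCm38.p6, and IREs and lengths from GENCODE M21.

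Genes named are the 10 members and Epas1, the genes of the iron and NRF2 lists past an adjusted p of 0.05 and otherwise the 2 of smallest p in each direction, and the 3 genes most like Tfrc, Slc40a1, Hmox1 and Cp. Cybrd1, Hp, Heph, Pdgfra, the further NRF2 targets and the marker genes named singly were named after their values were seen. Members and lists were chosen with earlier results of these data known. In the marker lists 3 red cell symbols were not matched. A further allele common to both groups, and some genes of the lists, are not reported here.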

Additional observations from a re-analysis of the deposited data

Results flagged for a closer look

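Within groups of 4 tumours, KPH2 1 included, 6 of 38 groups over 19 genes held a tumour whose gap to its nearest neighbour exceeded Dixon's 95% critical value of 0.829 of the group's range, which chance flags in about 1 in 20 groups of normal values. Over all tested genes 2020 of 29733 such groups (6.79%) were past it, and some of the 19 genes were named for their differences. Cp was at 54.8 CPM in KP 5, beside 220 to 234 CPM in the other KP tumours. Epas1 was at 59.6 CPM in the same tumour, beside 82.2 to 85.5 CPM.

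KPH2 2 stood apart in 3 genes. Hmox1 was at 131 CPM there, beside 33.9 to 47.0 CPM in the other KPH2 tumours. Ftl1 was at 455 CPM, beside 252 to 279 CPM. Nqo1 was at 45.1 CPM, beside 7.43 to 12.7 CPM. Tfr2 was at 0.838 CPM in KP 6, which is 6 counts, beside 0.374 to 0.437 CPM in the other KP tumours.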

How the results depend on the processing

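The count of genes called, 292 by edgeR over 7 tumours, was 1 over all 8 tumours, 3 with the muscle score and 30 with the macrophage score as a covariate, 1166 and 1169 with DESeq2 without and with a prior, and 55 to 349 with 1 tumour left out. Chosen after seeing the data, DESeq2 over 8 tumours gave 641 and limma on the rlog values of 8 gave 19. Of the members 0 were called, and 0 to 1 with 1 tumour left out, where Cp was called without KP 5 at −0.93. Of the iron list, 1 gene was called by edgeR over 7 tumours, 0 over 8, with a mean count of at least 50 or with either covariate, and 2 without a filter or without robust estimates. It was 5 with DESeq2 with or without a prior, 2 with DESeq2 over 8 tumours, 0 with limma on rlog values of 8, and 0 to 1 with 1 tumour left out. With the muscle score the log2 fold change turned to 0.52 for Trf, 0.04 for Fth1, 0.03 for Cp, 0.53 for Hmox1 and 0.19 for Ireb2. With the macrophage score it was 1.36, 0.06, 1.09, 0.55 and 0.14 for the same genes. Tfrc kept its sign, at 0.47 with the muscle and 0.75 with the macrophage score, beside 0.20 without a covariate. That of Ireb2 was 0.05 over 8 tumours with edgeR and with DESeq2, 0.04 with limma on rlog values, and 0.04 in the exact permutation test. With 1 tumour left out the ranges were −0.0017 to 0.35 for Tfrc, −0.45 to 0.10 for Trf, −0.45 to 0.11 for Fth1, −0.93 to −0.48 for Cp, −0.97 to 0.23 for Hmox1 and −0.11 to 0.10 for Ireb2. The log2 fold changes of Slc11a2, Ftl1, Slc40a1 and Aco1 kept their sign in all 21 alternatives, though that of Ftl1 was −1.13 with the muscle and −0.97 with the macrophage score and ran from −0.81 to −0.28 with 1 tumour left out. In the same fits Slc11a2 ran from −0.76 to −0.31, Slc40a1 from −0.44 to −0.12 and Aco1 from 0.10 to 0.19. Both scores ran closely with genotype over the 7 tumours, and the causes of these shifts were not tested. No paired analysis was possible because the groups share no replicate numbers. With 3 KPH2 tumours the intervals of Cp, −1.66 to 0.40, Ftl1, −1.27 to 0.24, Trf, −1.23 to 0.83, and Hmox1 leave changes of more than 1 log2 unit possible.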
